A study of Mus musculus with 5 samples.

Results

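The genes for the alpha and beta receptors of platelet-derived growth factor (PDGF), Pdgfra and Pdgfrb, were followed in mouse bone marrow mesenchymal stem cells (MSC). Every probe set that the platform annotation gives to either gene was taken, and 3 of the 3373 probe sets in the deposited table qualified: 1 for Pdgfra and 2 for Pdgfrb. The table names 2190 genes in all. Expression was measured on Affymetrix arrays, on which a probe set is a group of short probes for one transcript, and its value is a summary on the log2 scale. In the co-culture group (2 arrays), MSC had spent 48 h in a transwell with purified T cells that had been activated with antibodies to CD3 and CD28 (MSC to T cells, 1 to 10), so that a porous membrane lay between the populations. In the MSC group (3 arrays), the titles name MSC with no T cells. Both groups were primary cultures in Mesencult medium, labelled as separate biological repetitions. The text on the transwell treatment is attached to all 5 samples, so it does not say whether MSC alone were also kept in transwells, and strain, sex and age of the mice are not given in the sources used here.

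The PDGF receptors are tyrosine kinases of the cell surface that pair up when a PDGF dimer binds them, phosphorylate one another and recruit adaptors that lead to the RAS, PI3-kinase and phospholipase C pathways. The alpha receptor binds PDGF-AA, PDGF-BB and PDGF-CC, and the beta receptor binds PDGF-BB and PDGF-DD. Both receptors mark stromal cells: PDGFR-alpha is used to isolate mesenchymal progenitors from mouse marrow, and PDGFR-beta is a classic marker of pericytes and other perivascular cells. Signalling through them drives the proliferation and migration of mesenchymal cells.

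The table is not a whole array. In 3373 of its 3373 probe sets (100%), the co-culture arrays lay all above or all below the arrays of MSC alone, with 1642 higher in co-culture and 1731 lower. The receptors were moreover chosen by their log2 values in this same contrast, in which they move in opposite directions. The differences of Pdgfra and Pdgfrb are therefore given as a description, with no test. Centring each array on its median over the table would add 0.16 to every log2 difference.

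No promoter window of Pdgfrb was read here, so the receptors were not compared in this respect. The window around a transcription start of Pdgfra is shown as that of the receptor that was higher in co-culture. That of Pdgfc is shown because Pdgfc encodes a ligand of the same receptor and was lower. Each runs from 250 bases before to 50 bases after the start and was taken from RefSeq annotation of GRCm38.p6. Capitals mark letters that match a C/EBP-type motif, TTGCNNAA on either strand, in Pdgfra, and a kappaB motif in Pdgfc.
Pdgfra, chr5:75152001-75152300, plus strand: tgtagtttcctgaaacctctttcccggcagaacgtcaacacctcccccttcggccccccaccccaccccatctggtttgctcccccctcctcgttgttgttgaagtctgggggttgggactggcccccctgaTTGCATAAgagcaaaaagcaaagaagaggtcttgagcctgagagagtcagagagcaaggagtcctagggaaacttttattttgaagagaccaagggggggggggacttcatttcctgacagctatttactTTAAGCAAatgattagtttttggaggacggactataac
Pdgfc, chr3:81036166-81036465, plus strand: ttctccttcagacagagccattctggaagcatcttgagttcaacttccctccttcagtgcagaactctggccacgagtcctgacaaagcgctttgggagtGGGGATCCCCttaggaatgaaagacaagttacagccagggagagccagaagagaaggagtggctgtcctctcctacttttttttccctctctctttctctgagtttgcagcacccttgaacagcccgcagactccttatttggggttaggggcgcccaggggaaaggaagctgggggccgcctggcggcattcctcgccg
C/EBP proteins and NF-kappaB, which bind motifs of these kinds, are transcription factors of inflammatory responses. In the Pdgfra window, 1 match lay 118 to 111 bases before the start on the plus strand. The other lay at bases 13 to 20 after it on the minus strand, counting the start as base 1. TTGCNNAA occurred in 10.8% of the 32851 windows of this length in the same annotation. The kappaB match of Pdgfc lay 150 to 141 bases before the start and read as a match on both strands, and 4.51% of windows held such a match. GAS (TTCNNNGAA, 8.30% of windows), ISRE (GAAANNGAAA, 3.44%) and AP-1 (TGANTCA, 7.81%) motifs, searched on both strands, did not occur in either window. None of the 5 motifs occurred in the 2 windows of Pdgfa. The motifs were chosen with the Pdgfra sequence in view, and a match is no more than a match of letters.

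Co-cultured MSC carried more Pdgfra transcript than MSC alone. Its probe set, 1438946_at, read 10.769 and 11.395 in co-culture replicates 1 and 2, against 7.596, 8.402 and 5.928 in MSC replicates 1, 2 and 3. The groups did not overlap, as in 100% of the probe sets in the table. The lower co-culture array stood 2.37 above the highest array of MSC alone. The means were 11.08 ± 0.44 in co-culture (SD, n = 2) and 7.31 ± 1.26 in MSC alone (SD, n = 3), a log2 difference of 3.77 ± 0.70 (limma SE), or 13.7-fold. By size this was number 44 among the 1642 higher probe sets of the table. MSC replicate 3 was the lowest array, and without it the difference was 3.08, or 8.47-fold. In RNA of whole cultures, for this and the other genes, a higher level per cell cannot be told apart from more cells that carry the transcript, nor a lower level from fewer such cells.

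Pdgfrb was lower after co-culture in both of its probe sets. The brighter one, 1436970_a_at, read 9.127 and 7.859 in co-culture replicates 1 and 2, against 11.169, 10.522 and 11.448 in MSC replicates 1, 2 and 3. The dimmer one, 1417148_at, read 6.897 and 5.945 in co-culture and 8.734, 8.023 and 8.714 in MSC alone. In each probe set the higher co-culture array stayed below the lowest array of MSC alone, by 1.40 in the brighter and by 1.13 in the dimmer. The groups lie apart in 100% of the probe sets in the table.

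The brighter Pdgfrb probe set averaged 8.49 ± 0.90 in co-culture (SD, n = 2) and 11.05 ± 0.48 in MSC alone (SD, n = 3), a log2 difference of -2.55 ± 0.44 (SE), or 5.87-fold lower. The dimmer averaged 6.42 ± 0.67 in co-culture and 8.49 ± 0.40 in MSC alone, a difference of -2.07 ± 0.36 (SE), or 4.20-fold lower. Their differences were numbers 129 and 251 by size among the 1731 lower probe sets. The probe sets thus gave the same direction, with the larger difference in the brighter one. Co-culture replicate 2 was the lower co-culture array in both. Leaving it out gave 3.78-fold lower in the brighter probe set, and leaving out co-culture replicate 1 gave 9.11-fold lower.

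**Figure D1:**
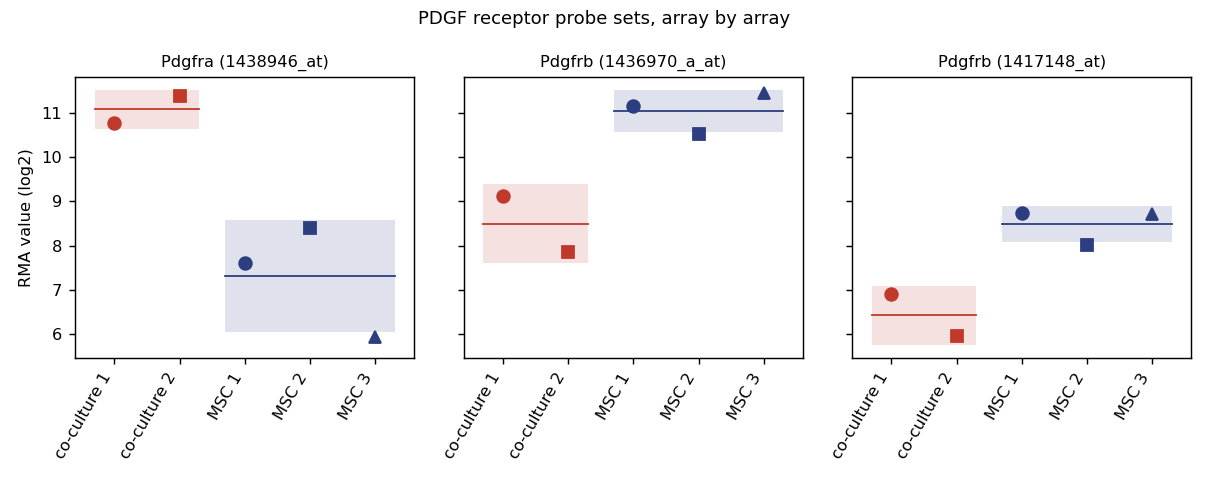
RMA values (log2) of the Pdgfra probe set and of both Pdgfrb probe sets in each array, with co-culture in red and MSC alone in blue. Lines are group means and shaded bands are 1 SD. Pdgfra lay at 10.769 and 11.395 in co-culture, above all arrays of MSC alone, and both Pdgfrb probe sets lay below all arrays of MSC alone. The groups lie apart in 100% of the probe sets in the table. Levels of different probe sets are not comparable with each other.

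The differences of Pdgfra and of the brighter Pdgfrb probe set were 6.33 apart on the log2 scale. A factor that scales a whole array cancels in this gap, so it was also 6.33 with arrays centred on their medians. It lay between 5.38 and 7.27 when single arrays were left out, lowest without co-culture replicate 2 and highest without co-culture replicate 1.

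The rule that chose the receptors did not name the spread between cultures. Yet the groups overlap in no probe set of the table, so a wide spread appears there only beside a wide enough difference. Ranks of spread are therefore not independent of the differences. Pdgfra varied more among the arrays of MSC alone than most probe sets did: its SD of 1.26 was number 19 of 3373, and the median SD was 0.21. The SDs of the Pdgfrb probe sets, 0.48 and 0.40, were also above that median, with 11.2% and 16.6% of probe sets above them. Between the co-culture arrays Pdgfra differed by 0.63 and the Pdgfrb probe sets by 1.27 and 0.95, against a median of 0.33.

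Within each group, arrays with more Pdgfra had less Pdgfrb in the brighter Pdgfrb probe set. Co-culture replicate 2 was above its group mean for Pdgfra by 0.31 and stood at -0.63 from the mean for Pdgfrb. MSC replicate 2 stood at 1.09 for Pdgfra and -0.52 for Pdgfrb, and MSC replicate 3 at -1.38 and 0.40. MSC replicate 1 lay between the others in both. The dimmer Pdgfrb probe set followed the same order but for MSC replicates 1 and 3, which read 8.734 and 8.714.

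That order was common in the table. Of the 1642 probe sets higher in co-culture, 411 ordered the arrays within both groups as Pdgfra did. Of the 1731 lower ones, 481 ordered them in the opposite way, as the brighter Pdgfrb probe set did. The opposed order of the receptors was thus one that many other probe sets shared.

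**Figure D2:**
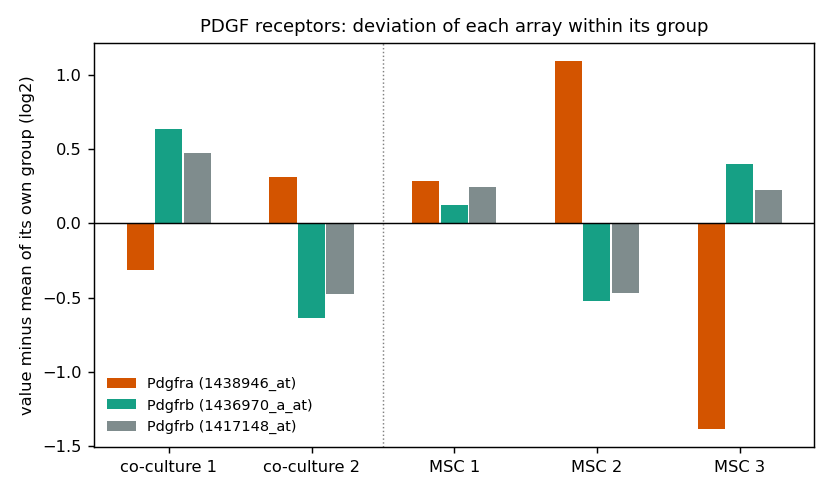
Deviation of each array from the mean of its own group (log2) for the Pdgfra probe set and both Pdgfrb probe sets, with co-culture arrays on the left and MSC alone on the right. In co-culture replicate 2 and MSC replicate 2 Pdgfra lay above its group mean and Pdgfrb below it, and in MSC replicate 3 Pdgfra lay at -1.38.

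Of the 4 genes for PDGF chains, Pdgfa and Pdgfc were in the table and moved in opposite directions. Pdgfa, which encodes the A chain of the alpha-receptor ligand PDGF-AA, read 9.881 and 10.372 in co-culture replicates 1 and 2, against 9.197, 8.698 and 9.109 in MSC replicates 1, 2 and 3. Its rise was 1.13 ± 0.25 (log2, SE), which is 2.18-fold. Both co-culture arrays were above every array of MSC alone, in a table where the groups lie apart in 100% of probe sets. The A chain moved in the direction of the alpha receptor.

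Pdgfc, which encodes another ligand chain of the alpha receptor, was lower. Its brighter probe set, 1419123_a_at, read 9.854 and 9.439 in co-culture and 10.772, 10.548 and 10.618 in MSC alone, a difference of -0.9995 ± 0.20 (SE), or 2.00-fold lower. The dimmer, 1449351_s_at, whose probes can bind related transcripts, read 9.875 and 9.526 in co-culture and 10.666, 10.581 and 10.542 in MSC alone, a difference of -0.90. The probe sets gave the same direction. Their groups did not overlap, which holds for 100% of the probe sets in the table. Pdgfb and Pdgfd, which encode ligand chains of the beta receptor, were not analysed here.

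**Figure D3:**
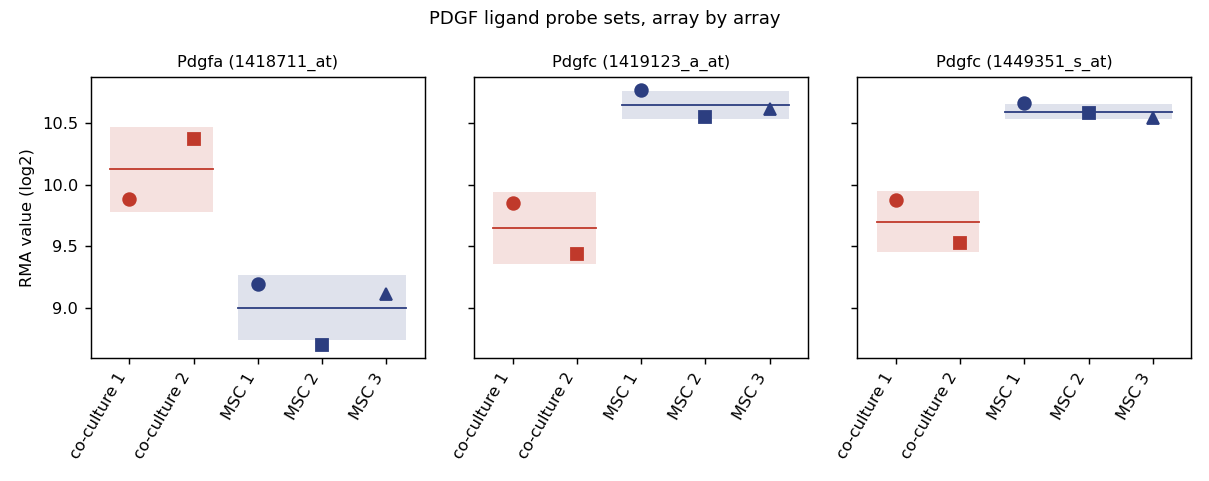
RMA values (log2) of the Pdgfa probe set and of both Pdgfc probe sets in each array, with co-culture in red and MSC alone in blue. Lines are group means and shaded bands are 1 SD. Pdgfa lay at 9.881 and 10.372 in co-culture, above all arrays of MSC alone, and both Pdgfc probe sets lay below all arrays of MSC alone. The groups lie apart in 100% of the probe sets in the table.

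The other genes of the pathway were read from 4 lists (ligands, adaptors and effectors, inhibitors and turnover genes, response genes), each gene by its brightest probe set. Of 105 listed genes 22 were in the table, and 15 of them rose and 7 fell in limma (adjusted p under 0.05 over all probe sets). Since limma called 100% of the 3373 probe sets (48.7% higher, 51.3% lower) and 100% of the 2190 genes (48.3% higher, 51.7% lower), a call is no result about these genes. Their median log2 difference was 0.83, against -0.61 over all 2190 genes. These signed medians mainly follow the shares of higher and lower genes, since every gene of the table differed by at least 0.467. The median size without its sign was 1.11, against 1.13. With the adjustment made for 15 times the table's number of tests, 2 of the 22 passed, Cbl upward and Lrp1 downward, where 12.3% of the table passed (6.08% upward, 6.23% downward).

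Among adaptors and effectors, 10 of 41 were in the table, 6 higher and 4 lower. Jak2, a cytokine receptor kinase that PDGF can also activate, rose by 1.45 ± 0.26 (SE), the adaptor gene Crkl by 1.20 ± 0.30 and the small GTPase gene Nras by 1.18 ± 0.24. Fyn, a SRC-family kinase that binds the activated receptors, fell by 1.66 ± 0.37. Pik3ca, the catalytic subunit p110-alpha of PI3-kinase, fell by 1.42 ± 0.33 (brighter probe set), and its dimmer probe set fell by 1.89 (by 2.63 without co-culture replicate 1 and by 1.14 without co-culture replicate 2). The genes of the receptors' immediate signalling partners went both ways, as genes of the table did in general (48.3% higher, 51.7% lower). Sos2 and Shc1, with the smallest sizes here (0.62 and 0.61), lost their calls without single arrays: Sos2 had adjusted p = 0.0586 in limma without co-culture replicate 1, and Shc1 had adjusted p = 0.0758 without co-culture replicate 2, 0.0565 without MSC replicate 1 and 0.0550 without MSC replicate 2.

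Of 28 inhibitors and turnover genes 8 were in the table, 6 higher and 2 lower. With 48.3% of all genes in the table higher and 51.7% lower, and so few listed genes in it, this count is no result about such genes. The ubiquitin ligase genes Cbl and Cblb, whose products tag activated receptor tyrosine kinases for degradation, rose by 1.19 ± 0.17 and 1.10 ± 0.21 (SE). Cbl read 6.536 and 6.703 in co-culture replicates 1 and 2, against 5.507, 5.385 and 5.387 in MSC replicates 1, 2 and 3. The co-culture arrays thus stood apart from those of MSC alone by over 1 on the log2 scale, in a table where the groups lie apart in 100% of probe sets.

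The cytokine signalling suppressors Socs3 and Socs1 rose by 1.95 ± 0.46 and 1.50 ± 0.32 (SE). The brightest Socs3 probe set, 1455899_x_at, can bind other transcripts, as can 1456212_x_at, which rose by 2.02. The remaining Socs3 probe set, 1416576_at, rose by 2.15. The Socs3 call was lost when the spread was not moderated (limma, adjusted p = 0.0504); the lowest value over the alternatives with an unchanged number of tests was 0.00134. Lrp1, an endocytic receptor that binds PDGFR-beta and is phosphorylated by it, read 8.583 and 8.430 in co-culture, against 10.021, 9.695 and 9.768 in MSC alone. It fell by 1.32 ± 0.19, in the direction of Pdgfrb, and its dimmer probe set fell by 0.69.

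Growth factor response genes were nearly all outside the table: 30 of 32 were not analysed here. Plaur, the urokinase receptor, rose by 1.23 ± 0.30 (SE). Etv5, an ETS-family transcription factor gene induced by receptor tyrosine kinases, rose by 0.86 ± 0.21 in its brighter probe set and by 1.18 in its dimmer one. No immediate early gene of the list, such as Fos or Egr1, was among the genes analysed.

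**Figure D4:**
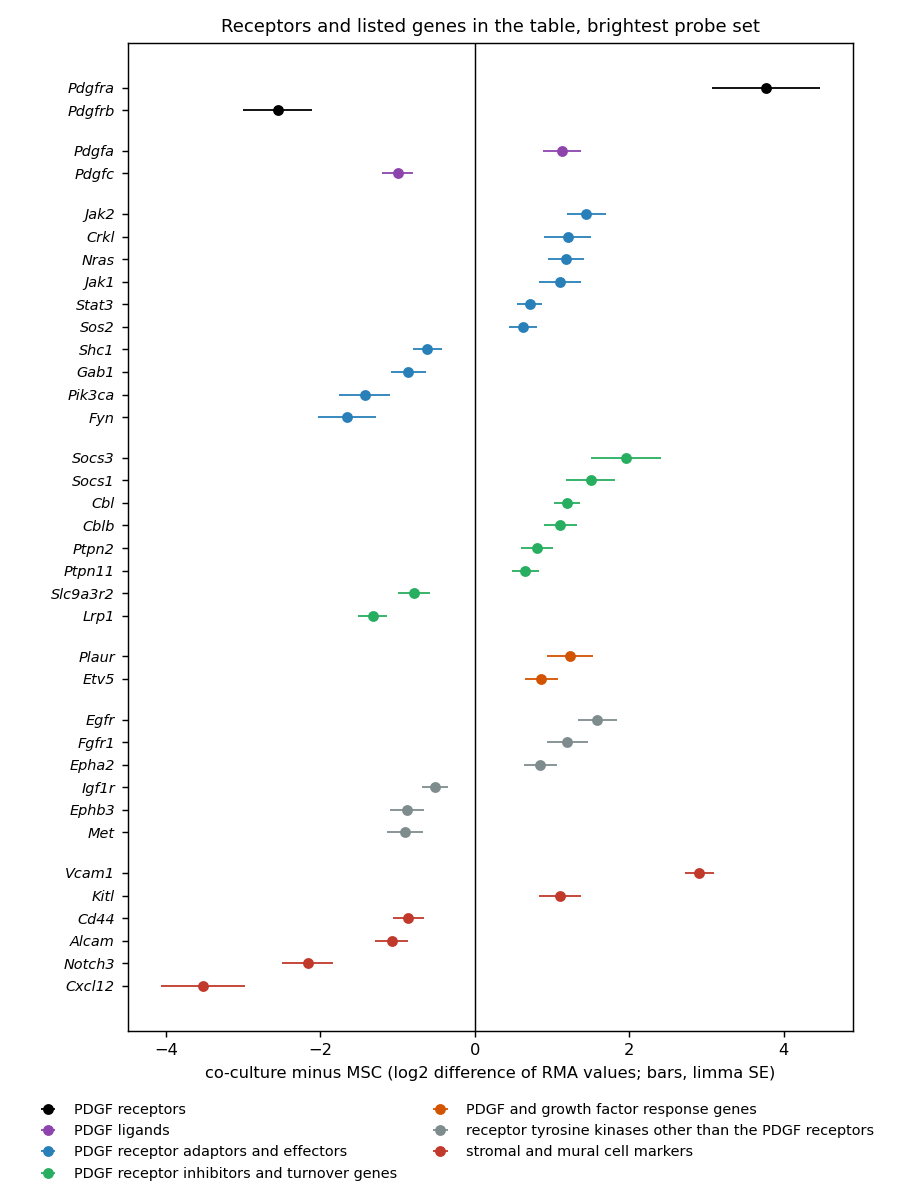
Log2 difference, co-culture minus MSC alone, of the brightest probe set of each receptor and of each listed gene in the table, coloured by list; bars are limma's SE. Pdgfra (3.77) lay farthest to the right of the genes drawn, and Pdgfrb (-2.55) lay farther left than every gene drawn but Cxcl12 (-3.52). The receptors were chosen by their differences in this contrast, so their places are no result.

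Of 49 receptor tyrosine kinase genes outside the PDGF receptors 6 were in the table, 3 higher and 3 lower, as genes of the table went in general (48.3% higher, 51.7% lower). Egfr, the receptor of epidermal growth factor, read 9.450 and 9.285 in co-culture and 7.872, 8.091 and 7.384 in MSC alone, and rose by 1.59 ± 0.25 (SE). Fgfr1, a receptor of fibroblast growth factors, rose by 1.19 ± 0.27 in 1424050_s_at, which can bind related transcripts, and by 1.06 in its other probe set. The ephrin receptor gene Epha2 rose by 0.85 ± 0.21. None of these 6 differed by as much as Pdgfra or Pdgfrb, but the PDGF receptors were chosen by their differences in this contrast. The other 43 listed kinases were not analysed here.

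Met, the receptor of hepatocyte growth factor, fell by 0.90 ± 0.23 (SE), and the ephrin receptor gene Ephb3 fell by 0.88 ± 0.22. Igf1r, the insulin-like growth factor receptor, had the smallest difference, -0.51. Its call was lost with arrays centred on their medians (adjusted p = 0.0821 in limma), without co-culture replicate 2 (0.0718), without MSC replicate 1 (0.0855) and without MSC replicate 2 (0.0641). The receptors closest in kind to the PDGF receptors, Kit, Csf1r and Flt3, were not analysed here.

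Because the receptors themselves serve as stromal and mural markers, 36 further markers of such cells were read, and 6 were in the table, 2 higher and 4 lower. Vcam1, an adhesion molecule of marrow stroma, rose by 2.91 ± 0.19 (SE). Notch3, a receptor of pericytes and vascular smooth muscle, read 6.148 and 5.441 in co-culture, against 8.382, 7.952 and 7.536 in MSC alone, and fell by 2.16 ± 0.33; its probe set, 1421965_s_at, can bind related transcripts. The other mural cell markers listed, such as Cspg4 and Rgs5, were not analysed here.

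Cxcl12, the chemokine of perivascular marrow stroma, fell by 3.52 ± 0.54 (SE). Alcam, an adhesion molecule of mesenchymal cells, fell by 1.08 ± 0.22 in its brightest probe set and fell by 1.80 and by 2.27 in the dimmer ones. Kitl, which encodes stem cell factor, the ligand of Kit, rose by 1.10 ± 0.27 in its brighter probe set and by 3.59 in its dimmer one. The dimmer one read 6.601 and 8.838 in co-culture replicates 1 and 2, and its rise was 4.71 without co-culture replicate 1 and 2.47 without co-culture replicate 2. The stromal markers in the table thus went both ways, as the table does (48.3% of genes higher, 51.7% lower), so this is no result about such markers.

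The labelled cell type was read from 15 mesenchymal markers, of which 8 were in the table: the receptors, Vcam1, Cxcl12, Cd44, Col1a1, Col1a2 and Col3a1. By brightest probe set 2 of these (Pdgfra and Vcam1) were higher in co-culture and 6 lower. Genes of the table went both ways (48.3% higher, 51.7% lower), and the receptors were chosen by this contrast, so the count is no result about such markers. The mean level of the 8 was 9.81 and 9.60 in co-culture replicates 1 and 2, against 11.18, 10.97 and 11.06 in MSC replicates 1, 2 and 3. Col1a2, a chain of type I collagen, read 12.837 and 11.961 in co-culture, against 14.455, 14.226 and 14.588 in MSC alone, and so fell 4.07-fold while 14.588 was the highest value of the table. Col1a1, the other chain of type I collagen, fell 15.4-fold and Col3a1, the chain of type III collagen, fell 25.5-fold. The collagens thus moved in the direction of Pdgfrb, and their dimmer probe sets fell further: 35.0-fold for Col1a1, 81.6-fold for Col3a1, and 11.4-fold and 38.3-fold for Col1a2 (the last 64.7-fold without co-culture replicate 1 and 22.7-fold without co-culture replicate 2). Whether the changes of the other mesenchymal markers bear on the differences of the receptors was not tested. Of 12 T cell, 8 endothelial and 8 B cell and granulocyte markers 0 were in the table, so these cells were not analysed here. Of 12 macrophage and monocyte markers, Mpeg1 and Ctss were in the table and rose. Their mean level was 8.03 and 7.35 in co-culture replicates 1 and 2, against 3.74, 4.24 and 4.03 in MSC replicates 1, 2 and 3. Defining markers such as Ptprc and Adgre1 were not analysed, and the part of such cells in the differences of the receptors was not tested.

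For each receptor the genes with the most similar pattern were found by the root mean square difference over the 5 arrays, after each gene was centred on its mean in MSC alone, among 2188 genes. Nearest to Pdgfra were Xaf1, an interferon-inducible factor that binds the apoptosis inhibitor XIAP (0.38 on the log2 scale), Slfn2, a Schlafen family gene (0.38), Psmb8, an immunoproteasome subunit (0.41), and Ern1, the endoplasmic reticulum stress sensor IRE1-alpha (0.41). The median gene was 2.88 away. This distance includes the co-culture difference by which Pdgfra was chosen, and 51.7% of all genes in the table were lower. The median distance therefore largely follows from that difference. In all of the nearest genes named, MSC replicate 3 was the lowest array, as it was for Pdgfra. This follows largely from matching the genes on the same 5 arrays. Slfn2, for example, read 10.323 and 10.671 in co-culture and 6.949, 7.093 and 5.768 in MSC alone.

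Nearest to the brighter Pdgfrb probe set were Elovl6, a fatty acid elongase (0.09), Creb3l1, a membrane-bound transcription factor (0.14), Lrch2 (0.16) and Itfg1 (0.16), where the median gene was 1.35 away. That distance too includes the difference by which Pdgfrb was chosen. Elovl6 read 6.587 and 5.270 in co-culture and 8.712, 8.136 and 8.846 in MSC alone. Its difference was -2.64, or 6.22-fold lower (9.81-fold without co-culture replicate 1 and 3.94-fold without co-culture replicate 2). Co-culture replicate 2 and MSC replicate 2 were the lowest arrays of their groups, as they were for Pdgfrb. Here too the shared order follows largely from the matching.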

How the data were processed

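RNA of 5 samples was hybridised to Affymetrix arrays. The deposited log2 values are probe set summaries made by the authors with RMA, per the submitters' processing notes; its version is not stated there. The method corrects background, quantile-normalises arrays and compresses low values, and it gives no detection call. The sources used here do not say how the 3373 probe sets were selected. The platform annotation gave 1 symbol to 3013 probe sets, several to 69 and none to 291, and 3010 of the former were found by Entrez identifier in the RefSeq table (GRCm38.p6), which changed 0 symbols.

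All 5 arrays were fitted together with limma 3.58.1 (R 4.3.3; lmFit, eBayes, two-sided, Benjamini-Hochberg over all probe sets, threshold 0.05), without covariates or filter. A gene was represented by its brightest probe set. For this comparison, data were also simulated with 3373 probe sets, of which 3173 were left unchanged. The fit recovered 0 of 50 changes of 0.5 and 15 of 50 changes of 1 on the log2 scale. It recovered 42 of 50 changes of 2 and 47 of 50 changes of 3, and it made 8 calls in the unchanged part. The deposited table was selected and limma called 100% of it, so the Benjamini-Hochberg cut-off is not the same there. The simulated rates therefore do not carry over to calls in the table. The number of arrays limits the precision, and errors may be too small and differences too large because the table was selected.

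The receptors and gene lists were chosen with earlier results of these data known. Named were all ligands in the table, the 5 genes of each other list with the largest difference, and the 4 genes most like each receptor. Jak1, Stat3, Ptpn2 and others appear in a plot only. Sos2, Shc1 and Igf1r were named after their values were seen. Promoter windows came from RefSeq.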

Additional observations from a re-analysis of the deposited data

How the results depend on the processing

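The directions of Pdgfra and Pdgfrb were the same in every alternative run on them (array medians, single arrays left out, replicate block, mean of a gene's probe sets). With single arrays left out the log2 difference of Pdgfra lay between 3.08 and 4.32 and that of Pdgfrb between -3.19 and -1.92. With the mean of both Pdgfrb probe sets it was -2.31. With the adjustment made for 15 times the table's number of tests, limma called 1 PDGF pathway gene higher and 1 lower (15 and 7 with the table's own number of tests), 0 and 0 of the receptor tyrosine kinase genes (3 and 3), and 1 and 0 of the stromal and mural marker genes (2 and 4); at an unadjusted p under 0.05 all of these counts were 15 and 7, 3 and 3, and 2 and 4. With single arrays left out the pathway counts were 14 to 15 higher and 6 to 7 lower.

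Replicates 1 and 2 share numbers between the groups. Over 3373 probe sets, deviations from the group means correlated at 0.22 for the replicates numbered 1 and 0.32 for those numbered 2. The deviations of the 2 co-culture arrays mirror each other, so these values are not separate results. Co-culture replicate 1 correlated at -0.32 with MSC replicate 2 and at 0.11 with MSC replicate 3. Co-culture replicate 2 correlated at -0.22 with MSC replicate 1 and at -0.11 with MSC replicate 3. With this number of pairs the values do not show that the numbers pair the cultures. With a replicate block the differences were 3.08 for Pdgfra and -2.35 for Pdgfrb, the values without MSC replicate 3, and no listed gene in the table lost its call. Without the dimmest 25% of probe sets 18 pathway genes were left, 12 higher and 6 lower. Low values and missing detection calls limit the size of differences at dim probe sets.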
